A study of Drosophila melanogaster with 24 samples.

Results

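The ecdysone response genes described here are 10 genes of Drosophila melanogaster that carry or answer the signal of the steroid hormone ecdysone: EcR, usp, Eip74EF, Eip75B, br, Hr4, Eip78C, Hr39, ftz-f1 and Eip93F. Their members are all accessible chromatin peaks that overlap the annotated gene body or the 1 kb on either side of it, in Release 6 (dm6) coordinates. They came to 140 of the 11145 peaks in the table (1.26%). A single peak, chrX:1988557-1989362 in Hr4, was chosen on its measured fall from day 1 to day 10 in H3.3null brains, so that contrast is given only as a description. The 1 kb margin mattered little, since EcR, Eip74EF, ftz-f1 and Eip93F each gained 1 peak from it and the other genes none.

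Open chromatin was assayed by ATAC-seq, in which a transposase inserts adapters into accessible DNA, in brains of adult female flies. There were 4 genotypes, each sampled at day 1 and day 10 after adults had left the pupal case (eclosion), with 3 replicates in each of the 8 groups and 24 libraries in all. OreR (Oregon-R) is a laboratory wild-type strain and served as the control. H3.3null, as named, lacks the replacement histone H3.3, which is put into chromatin outside of DNA replication. H3.3H3.2, as named, has the replicative histone H3.2 in place of H3.3, while the name H3.3S31A stands for an H3.3 tail with a serine changed to alanine. The alleles and crosses behind these names are not given in the sources used here. Each sample pooled 8 brains per the labels, and nothing says whether replicates came from separate cultures, so the p-values measure the spread between these samples.

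As background, ecdysone binds a dimer of the nuclear receptors EcR and usp (ultraspiracle), which sits on DNA and switches on a small set of early genes that encode transcription factors. Early factors such as Eip74EF, Eip75B and br (broad) then act on later genes and on each other, while Hr4, Eip78C, Hr39 and ftz-f1 encode nuclear receptors that time the later steps. Eip93F encodes a factor that directs adult development at the end of metamorphosis, and ecdysone signalling goes on in the adult brain, where it has been tied to sleep and memory.

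The libraries held 3021672 to 4890579 counts each, of which 1.3% to 1.6% fell in the member peaks. A member peak held between 50 and 1988 counts in a library (median 346.5), and all 140 passed the filter on low counts, as did every other peak. Replicates correlated at r = 0.956 to 0.982 across peaks. In the check of the targeted genes, a His3.3B peak (chrX:9154788-9155165) had a mean of 12.1 and 15.2 CPM in H3.3null at day 1 and day 10, against 43.2 to 48.9 CPM in the other 6 groups. A His3.3A peak (chr2L:5055623-5055921) had 47.7 and 56.9 CPM in H3.3null, against 22.8 to 27.8 CPM in the others. Of the other peaks of these genes, 1 in His3.3B (chrX:9152177-9152538) was lower in H3.3null, at 57.5 and 67.3 CPM against 71.1 to 92.3 CPM, and another (chrX:9155649-9156872) was higher, at 228.8 and 232.2 CPM against 204.9 to 218.1 CPM. CPM is the count scaled to the TMM-adjusted size of its library by edgeR, so that libraries can be compared. Of the cell type markers, all 5 neuronal genes had a peak, with 32 peaks in all, and 4 of 5 glial genes had one. Other types had peaks too: 4 of 6 fat body, 3 of 7 photoreceptor, 2 of 5 hemocyte and 1 of 4 tracheal genes. None of the 5 muscle genes had one.

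Per length, the member peaks had a median level of 144.2 CPM per kb, against 136.0 CPM per kb over all peaks. The genes with the highest median level per kb were ftz-f1, at 201.6 CPM per kb over 16 peaks, and Eip74EF, at 197.1 CPM per kb over 19 peaks. EcR, with 23 peaks, had a median of 153.8 CPM per kb, and Eip78C, with 6, the lowest at 107.2 CPM per kb. The density of peaks ran from 0.78 per 10 kb in br, a gene of 89.7 kb with 7 peaks, to 3.18 per 10 kb in Hr4, a gene of 66.0 kb with 21. Eip75B had the most peaks, 28 over 113.7 kb, Eip93F had 15, Hr39 had 4 and usp a single peak. Only 9 of the 140 peak centres lay within 500 bp of either end of the gene, so most members are inside the gene body. The gene table holds no strand or exons, and start sites and introns are not told apart. Of the 140 members, 37 also lay within 1 kb of another gene, among them all 7 br peaks (with Mur2B, among others), 11 of 16 ftz-f1 peaks and 9 of 23 EcR peaks, and their signal is shared with that gene.

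Hr4 encodes a nuclear receptor that, in larvae, takes part in timing the ecdysone pulses that start metamorphosis. Its chosen peak lies inside the gene, 47.0 kb from the low-coordinate end. In OreR the 3 libraries had 130.0, 121.1 and 135.5 CPM at day 1 and 81.0, 93.8 and 81.6 CPM at day 10. In H3.3H3.2 they had 155.4, 157.4 and 142.1 CPM at day 1 and 94.8, 104.7 and 91.8 CPM at day 10. In H3.3S31A they had 107.7, 105.5 and 111.5 CPM at day 1 and 69.4, 85.2 and 76.1 CPM at day 10. In these 3 genotypes, whose libraries the choice did not use, every day 10 library lay below every day 1 library of its genotype.

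In H3.3null, the genotype that chose the peak, the levels were 239.6, 233.1 and 217.1 CPM at day 1 and 95.9, 118.5 and 144.7 CPM at day 10, a log2 difference of -0.93. The fall in the other genotypes was 0.59 ± 0.107 (SE) on the log2 scale in OreR (edgeR quasi-likelihood test, adjusted p = 0.000916), with 3 libraries in each group. The log2 change was -0.64 ± 0.104 in H3.3H3.2 (adjusted p = 0.000625) and -0.49 ± 0.11 in H3.3S31A (adjusted p = 0.0142). The H3.3S31A call was lost when any of 4 libraries was left out (day 1 replicates 1 and 3, day 10 replicates 1 and 3), with log2 changes of -0.58 to -0.42 over the 6 omissions, and at an adjusted p of 0.0516 when its 2 groups were fitted alone. Averaged over the 3 genotypes, the change was -0.58 ± 0.062 (adjusted p = 2.77e-08) and held without any 1 library.

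The 8 groups ranked by their mean level at this peak were led by H3.3null at day 1, at 230.0 ± 11.59 CPM (SD, n = 3), with all 3 libraries above those of any other group. H3.3H3.2 at day 1 followed at 151.6 ± 8.29 CPM and OreR at day 1 at 128.9 ± 7.23 CPM, and their libraries did not overlap, although the difference missed the threshold (edgeR adjusted p = 0.167). H3.3null at day 10, at 119.7 ± 24.41 CPM, ran from 95.9 to 144.7 CPM. It overlapped the day 1 groups of H3.3H3.2, OreR and H3.3S31A, and also H3.3H3.2 at day 10. H3.3S31A at day 1 had 108.2 ± 3.06 CPM. The lowest groups were the day 10 brains of H3.3H3.2 (97.1 ± 6.76 CPM), OreR (85.5 ± 7.21 CPM) and H3.3S31A (76.9 ± 7.96 CPM), and neighbours among them overlapped. The age change of H3.3H3.2 differed from that of OreR by -0.05 ± 0.15 on the log2 scale and that of H3.3S31A by 0.10 ± 0.153, with adjusted p-values of 0.999 and 1.0 in edgeR.

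**Figure D1:**
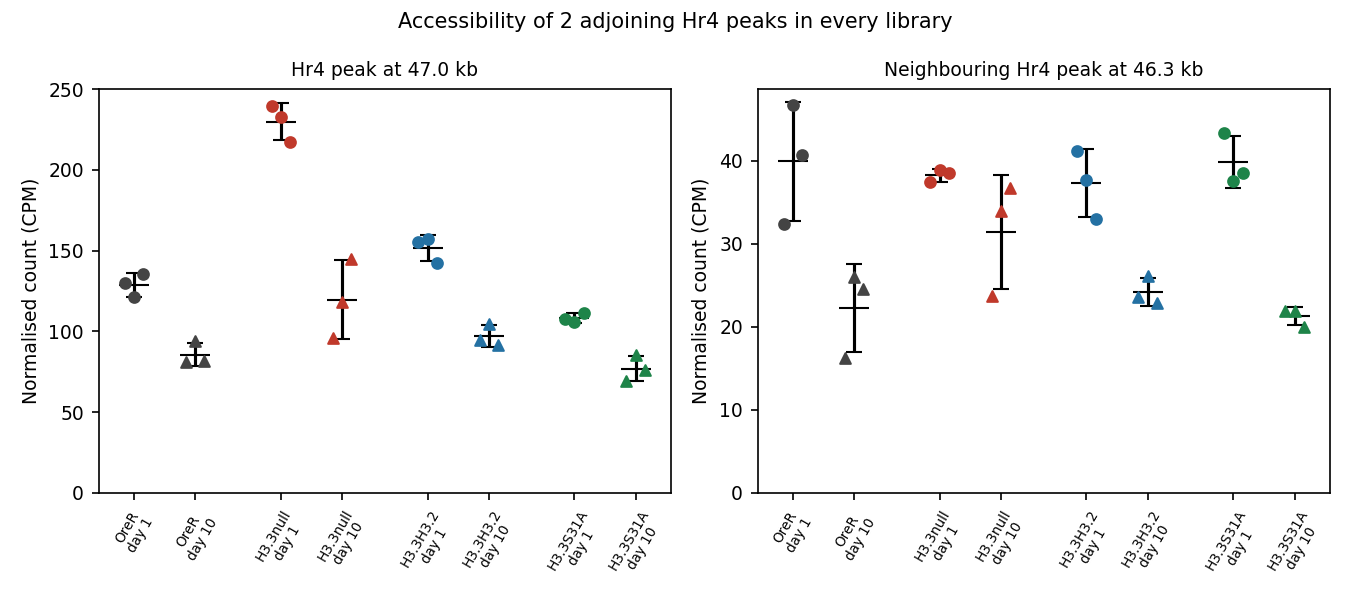
Normalised counts (CPM, vertical axis from 0) of the Hr4 peak chosen on its fall in H3.3null and of its neighbour, in each of the 24 libraries (points; circles day 1, triangles day 10) by genotype and day, with group mean and SD. At the chosen peak H3.3null at day 1 (217.1 to 239.6 CPM) sits above every other group, and at the neighbour the day 10 libraries of OreR, H3.3H3.2 and H3.3S31A lie below their day 1 libraries.

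The next Hr4 peak, chrX:1988097-1988313, at 46.3 kb, had the largest fall of any member in the age contrast averaged over the 3 genotypes. OreR had 32.4, 46.7 and 40.7 CPM at day 1 and 16.2, 26 and 24.5 CPM at day 10. H3.3H3.2 had 41.2, 37.7 and 33 CPM and then 23.6, 26.1 and 22.9 CPM, and H3.3S31A had 43.4, 37.6 and 38.5 CPM and then 21.9, 21.9 and 20 CPM. Day 10 lay below day 1 without overlap in all 3 genotypes, with a mean log2 change of -0.79 ± 0.094 (edgeR adjusted p = 2.11e-07). In H3.3null the day 1 libraries had 37.4, 38.9 and 38.5 CPM and the day 10 libraries 23.7, 34.0 and 36.7 CPM, a difference of -0.27 on the log2 scale.

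Another 3 Hr4 peaks fell with age in the mean over the 3 genotypes. The peak chrX:1981497-1982395 changed by -0.30 ± 0.048 (adjusted p = 4.17e-05), from 203.4 ± 10.67 CPM over the 9 day 1 libraries to 165.2 ± 7.42 CPM over the 9 day 10 libraries. The peak chrX:1964878-1965360 changed by -0.37 ± 0.062 (adjusted p = 7.44e-05) and chrX:1963403-1964271 by -0.25 ± 0.057 (adjusted p = 0.00374). All 5 Hr4 calls held without any 1 of the 18 libraries, and 0 of 21 Hr4 peaks rose. The 5 falls lay between 21.9 and 47.0 kb from the low-coordinate end, while the other 16 Hr4 peaks were not called. The gene's highest peak, chrX:1975623-1976690, changed by 0.06 (adjusted p = 0.526).

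**Figure D2:**
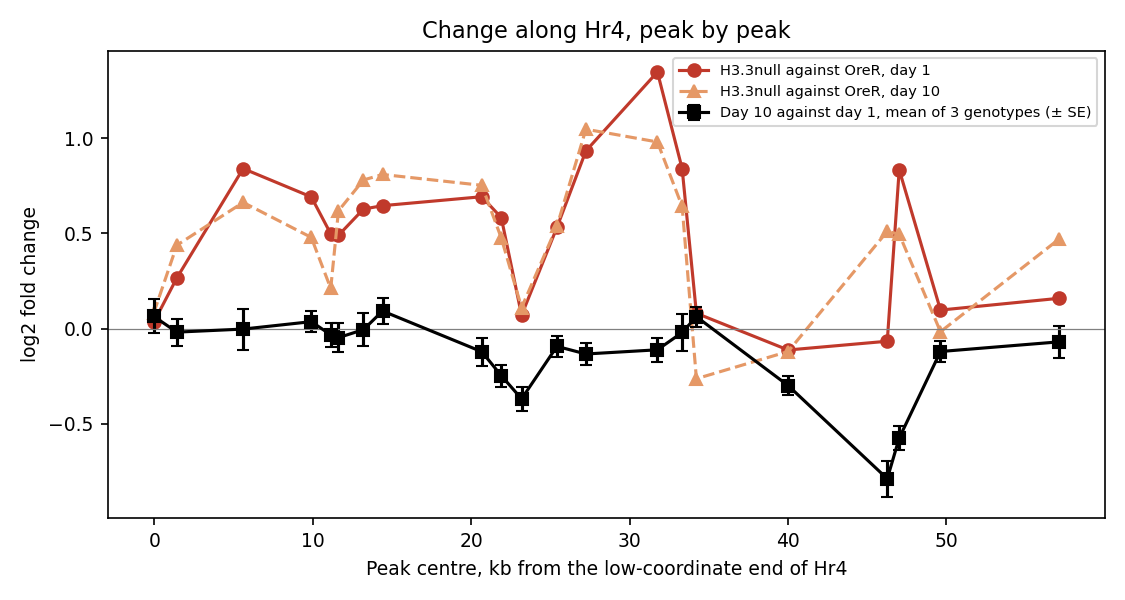
Log2 fold change of each of the 21 Hr4 peaks (vertical axis) against the distance of the peak centre from the low-coordinate end of the gene in kb (horizontal axis). Black squares (± SE) are day 10 against day 1 averaged over OreR, H3.3H3.2 and H3.3S31A, and red and orange marks are H3.3null against OreR at day 1 and day 10; the age falls lie at 21.9, 23.2, 40.0, 46.3 and 47.0 kb, whereas 13 and 15 peaks are higher in H3.3null, most of them nearer the low-coordinate end.

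Across all 10 genes, 22 of the 140 member peaks (15.7%) were called for day 10 against day 1 in the mean over the 3 genotypes (edgeR, adjusted p under 0.05), against 8.44% of all peaks. Of these, 16 rose and 6 fell, where 4.12% of all peaks rose and 4.32% fell. Member peaks had a median width of 535 bp, against 454 bp over all peaks. The part of peak width in this share and those below was not tested. The members' median log2 change was 0.06, against -0.003 over all peaks. Outside Hr4, of 119 peaks 16 rose and 1 fell, a br peak, and the rest were not called. Leaving out any 1 of the 18 libraries gave 19 to 26 member calls. The neuronal marker peaks moved with age too: 5 of 32 rose and 0 fell, and their summed level was 3851.5 to 4100.1 CPM in the 9 day 1 libraries of these genotypes and 3956.8 to 4535.9 CPM in the 9 day 10 libraries. Both peaks of trh, the 1 tracheal marker gene of 4 with a peak, fell with age (-0.33 and -0.25), and of 8 glial marker peaks 1 rose and 1 fell. The part of these shifts in the member changes was not tested, and a change in the share of a cell type cannot be told apart from a change within cells in whole brains.

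**Figure D3:**
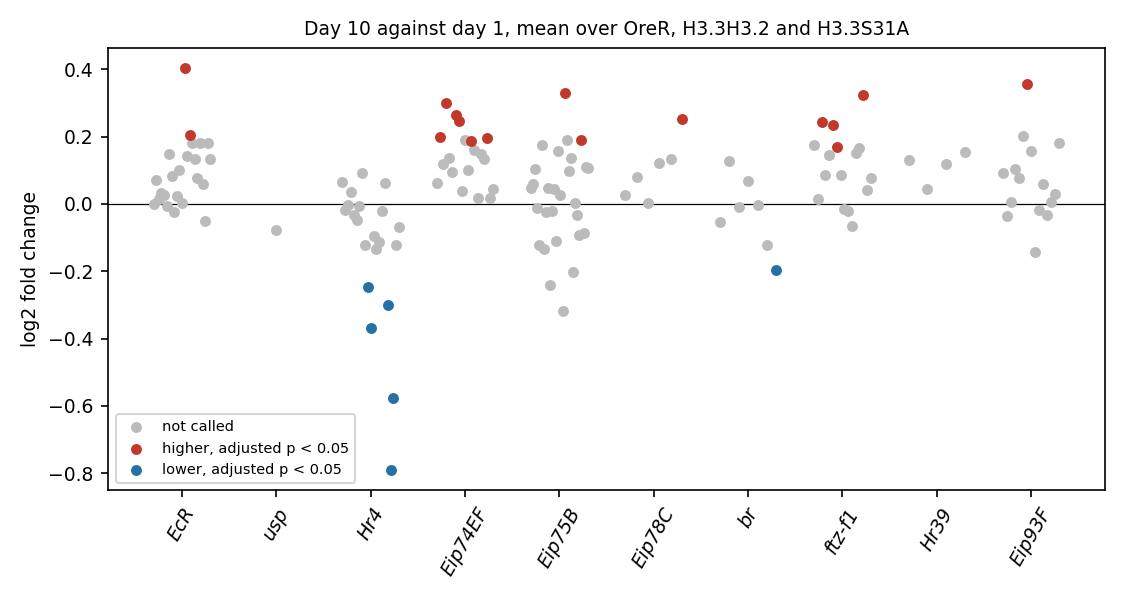
Log2 fold change of every member peak, day 10 against day 1, averaged over OreR, H3.3H3.2 and H3.3S31A (vertical axis), by gene (horizontal axis; peaks in order along the chromosome). Red and blue points were called higher (16) and lower (6) at an adjusted p under 0.05, grey points were not, and 5 of the 6 falls are in Hr4 while 6 of the 16 rises are in Eip74EF.

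Among the early genes, Eip74EF, an ETS-domain transcription factor, had the most rises with age: 6 of its 19 peaks, and none fell. At chr3L:17576254-17577050 the libraries had 229.0, 219.1 and 241.0 CPM at day 1 and 279.6, 262.5 and 269.7 CPM at day 10 in OreR. H3.3H3.2 went from 215.5, 211.4 and 203.9 CPM to 263.7, 254.3 and 243.1 CPM, and H3.3S31A from 218.4, 223.8 and 204.0 CPM to 289.3, 241.9 and 254.0 CPM. Day 10 exceeded day 1 without overlap in each, and the mean log2 change was 0.26 ± 0.05 (adjusted p = 0.000468). The peak chr3L:17569915-17570533 changed most, by 0.30 ± 0.059 (adjusted p = 0.000613), and the other 4 by 0.19 to 0.25. In H3.3null, 4 of these 6 peaks had a difference of the same sign, by 0.12 to 0.34, and the other 2 had -0.03 and -0.09.

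Eip75B, a nuclear receptor that binds heme, had 2 rises among 28 peaks. Both depended on the libraries: chr3L:18026023-18026269 (0.33 ± 0.088, adjusted p = 0.0127) lost its call without OreR day 10 replicate 1, at 0.28, and chr3L:18061702-18062276 (0.19 ± 0.062, adjusted p = 0.0458) lost it in 15 of 18 omissions, at 0.15 to 0.20. The zinc-finger gene br had the 1 fall outside Hr4, at chrX:1619584-1620864, a peak shared with Mur2B. Its level was 174.7 ± 9.77 CPM over the 9 day 1 libraries and 152.4 ± 7.29 CPM over the 9 day 10 libraries, a log2 change of -0.20 ± 0.05 (adjusted p = 0.00862). The highest peaks of Eip75B and br, at chr3L:18036026-18036696 and chrX:1605792-1607879, had log2 changes of 0.002 and -0.01.

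In ftz-f1, a nuclear receptor that makes tissues competent for later ecdysone pulses, 4 of 16 peaks rose and none fell. At chr3L:18795774-18796260, shared with lncRNA:CR45939, the level went from 51.6 ± 4.68 CPM over the 9 day 1 libraries to 64.5 ± 6.55 CPM over the 9 day 10 libraries. The log2 change was 0.32 ± 0.067 (adjusted p = 0.00127). The other rises were 0.24, 0.23 and 0.17, and the last, at chr3L:18771456-18772296, lost its call without OreR day 1 replicate 1 (0.15), OreR day 10 replicate 3 (0.15) or H3.3S31A day 1 replicate 3 (0.16).

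Eip93F had 1 rise among 15 peaks, at chr3R:21971142-21971521, where the OreR libraries had 42.2, 41.7 and 45.7 CPM at day 1 and 58.1, 49.4 and 60.2 CPM at day 10. The mean change was 0.36 ± 0.068 (adjusted p = 0.000447), with a positive difference in all 4 genotypes. Eip78C, a nuclear receptor related to Eip75B, had 1 of 6, at chr3L:21263094-21263757 (0.25 ± 0.065, adjusted p = 0.0108). Hr39, a nuclear receptor close to ftz-f1, had 0 of 4 peaks called, with its highest peak at 0.12 (adjusted p = 0.229) in edgeR.

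For the receptor itself, EcR had 2 rises among 23 peaks. At chr2R:6142345-6142637, which lies within 1 kb of transfer RNA genes inside EcR, OreR had 32.6, 36.0 and 28.2 CPM at day 1 and 51.9, 35.6 and 57.0 CPM at day 10, so its groups overlapped in 1 library. The mean log2 change over the 3 genotypes was 0.40 ± 0.084 (adjusted p = 0.00127). The rise at chr2R:6151041-6151541 (0.21 ± 0.06, adjusted p = 0.0239) lost its call in 5 of 18 omissions: OreR day 1 replicates 2 and 3, OreR day 10 replicates 1 and 3, and H3.3H3.2 day 1 replicate 3, at 0.18 to 0.19. The highest peak of EcR, at chr2R:6132743-6133961, had a log2 change of 0.08 (adjusted p = 0.418), and those of Eip74EF, ftz-f1, Eip93F and Eip78C had 0.10, 0.09, 0.09 and 0.03 (adjusted p = 0.287 to 0.833). The single peak of usp, the partner of EcR, had a log2 change of -0.08 (adjusted p = 0.448).

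Within single genotypes fewer peaks passed, with 3 libraries a group and a median SE of 0.106 to 0.11. In OreR 5 of 140 member peaks were called, against 1.91% of all peaks: the 4 Hr4 peaks that start at 1964878, 1981497, 1988097 and 1988557 fell, and the EcR peak that starts at 6142345 rose. The count was 2 or 3 when OreR day 1 replicate 2 or any OreR day 10 library was left out, and only the Hr4 peaks that start at 1988097 and 1988557 kept their calls in every omission. In H3.3H3.2 only the chosen Hr4 peak was called (0.61% of all peaks), and in H3.3S31A the chosen peak and its neighbour were (0.987% of all peaks). In H3.3null, which is description only, 7 member peaks passed, 3 higher and 4 lower, where 0.924% of all peaks did. The H3.3H3.2 count was 2 without its day 1 replicate 2, the H3.3S31A count 1 without its day 1 or day 10 replicate 1 or 3, and the H3.3null count 2 or 3 without any of its day 1 libraries or its day 10 replicate 1 or 2.

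Whether the age change of a mutant differed from that of OreR was tested as an interaction, and 0 of the 140 members passed in any of the 3 mutants (0% of all peaks) in edgeR, and 0 in DESeq2. At an unadjusted p under 0.05 there were 20 members in the H3.3null test, the chosen Hr4 peak among them, 4 in the H3.3H3.2 test and 5 in the H3.3S31A test, where 984, 336 and 388 of all 11145 peaks were. The chosen peak was picked on its fall in H3.3null, so its place in the H3.3null count is a description only. The median SE of the difference was 0.151 to 0.155 on the log2 scale, which sets the size that could be seen.

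Summed over all peaks of a gene, 6 of the 10 genes were called in the mean age contrast, against 10.3% of the 7430 genes with a peak. Hr4 fell, by 0.12 ± 0.0258 on the log2 scale (adjusted p = 0.00123). Eip74EF rose by 0.16 ± 0.0238 (adjusted p = 4.71e-06) and ftz-f1 by 0.14 ± 0.0266 (adjusted p = 0.000217), and these 3 calls held without any 1 library. The rises of Hr39 (0.13), Eip78C (0.09) and EcR (0.08) were lost in 6, 9 and 12 of 18 omissions, so that the count was 3 without OreR day 10 replicate 1, H3.3H3.2 day 1 replicate 1, H3.3H3.2 day 10 replicate 1, H3.3S31A day 1 replicate 1 or H3.3S31A day 10 replicate 3. Eip93F (0.08, adjusted p = 0.0591), Eip75B (0.05, adjusted p = 0.228), br (-0.04, adjusted p = 0.402) and usp (-0.07, adjusted p = 0.432) did not pass.

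Each mutant was compared with OreR at the same age, and the 3 mutants share the OreR libraries. Mutant backgrounds are not given, so in any comparison of genotypes an effect of H3.3 cannot be told apart from a background difference. At day 1, 45 of 140 member peaks (32.1%) differed between H3.3null and OreR, against 24.7% of all peaks. Of these, 37 were higher and 8 lower in H3.3null, where 14.1% of all peaks were higher and 10.6% lower. At day 10, 41 members (29.3%) differed, against 24.5% of all peaks, with 33 higher and 8 lower, where 15.5% of all peaks were higher and 9% lower. Of the 45 calls at day 1, 31 held without any 1 library, and of the 41 at day 10, 27 did. The members' median log2 difference was 0.13 at day 1 and 0.10 at day 10, beside -0.001 and -0.006 over all peaks. Of the member calls, 28 were shared by both ages in the same direction, 62.2% of those at day 1 and 68.3% of those at day 10, where 62.7% and 63.3% of the calls over all peaks were. Of the 32 neuronal marker peaks, 5 were higher and 1 lower in H3.3null at day 1, and 2 higher and 3 lower at day 10. Of the 2 tracheal marker peaks, both in trh, 1 was lower at day 1, and 1 was higher and 1 lower at day 10. Of the 7 fat body marker peaks, 1 was higher at day 1 (Lsp2, 0.44), and 2 were higher, Lsp2 (0.55) among them, and 1 lower (FASN1, -0.28) at day 10. Of the 8 glial marker peaks none was called at day 1 and 1 was higher at day 10 (wrapper, 0.44), and none of the 3 hemocyte or 3 photoreceptor marker peaks was called at either age. The part of these shifts in the member differences was not tested.

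Hr4 and Eip75B held most of the higher members at either age. In Hr4, 13 of 21 peaks were higher in H3.3null at day 1 and none lower, and at day 10 15 were higher and 1 lower, the chosen peak among the higher ones at both ages. The gene's median log2 difference was 0.53 at day 1 and 0.50 at day 10. At chrX:1973391-1973998 the H3.3null libraries had 130.2, 122.6 and 129.9 CPM at day 1, against 48.1, 51.2 and 50.7 CPM in OreR. At day 10 they had 85.1, 87.4 and 91.5 CPM, against 50.4, 46.2 and 37.7 CPM. Every H3.3null library lay above every OreR library at both ages, with log2 differences of 1.35 ± 0.103 (adjusted p = 9.28e-13) and 0.98 ± 0.107 (adjusted p = 4.17e-09).

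The largest Hr4 difference at day 10 was at chrX:1968583-1969778, with 205.0, 182.0 and 186.8 CPM in H3.3null and 87.3, 96.5 and 93.4 CPM in OreR. The log2 difference there was 1.05 ± 0.102 (adjusted p = 3.61e-10), and the day 1 value was 0.93 ± 0.1 (adjusted p = 3.24e-09). Of the 13 Hr4 calls at day 1, 12 were also made at day 10. All 13 held without any 1 of the 6 libraries, and 12 of the 16 calls at day 10 did. The chosen peak, whose H3.3null libraries drew attention to it, was higher by 0.84 and 0.50 at day 1 and day 10, given as a description. Summed over the gene, with the chosen peak included, the Hr4 log2 difference was 0.44 ± 0.0447 and 0.35 ± 0.0448 at the 2 ages, given as a description too.

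Of the 13 peaks within 50 kb outside Hr4, 3 were higher in H3.3null at day 1 and 3 at day 10, with median log2 differences of -0.07 and 0.08. In the mean age contrast 2 of these 13 fell, with a median of -0.10, beside -0.07 for the Hr4 peaks. Of the 15 peaks within 50 kb outside Eip75B, 2 were higher in H3.3null at day 1 and 5 at day 10, with medians of 0.08 and 0.06, and none was called with age. No difference between the genes and their surroundings was tested.

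In Eip75B, 10 of 28 peaks were higher in H3.3null at day 1, and at day 10 8 were higher and 1 lower, with 6 called at both ages. At chr3L:17967074-17967508 H3.3null had 72.3, 64.7 and 58.8 CPM at day 1 and 58.9, 70.9 and 55.0 CPM at day 10. OreR had 30.9, 29.4 and 25.4 CPM and then 27.2, 30.2 and 18.4 CPM, below every H3.3null library. The log2 differences were 1.19 ± 0.148 (adjusted p = 7.67e-08) and 1.29 ± 0.152 (adjusted p = 2.32e-08). Further along the gene, chr3L:18027433-18027811 was higher by 0.95 and 1.05 (adjusted p = 1.14e-05 and 1.76e-06). Summed over the gene, Eip75B was higher by 0.24 ± 0.0405 and 0.19 ± 0.0405 at the 2 ages (adjusted p = 1.3e-05 and 0.000384).

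In Eip74EF none of the 19 peaks was higher, and 1 was lower at day 1 and 2 at day 10, where 10.6% and 9% of all peaks were lower, and its summed difference was not called (-0.02 and -0.10, adjusted p = 0.789 and 0.0849). At chr3L:17572065-17572581 H3.3null had 84.2, 67.1 and 69.1 CPM at day 10, below the 114.2, 98.5 and 97.0 CPM of OreR. The log2 difference there was -0.49 ± 0.114 (adjusted p = 0.000958). At day 1 it was -0.40 ± 0.115 (adjusted p = 0.00826), a call lost without OreR day 1 replicate 2 (-0.34) or H3.3null day 1 replicate 2 (-0.27). The br peaks split: at day 1, 3 were higher and 3 lower, led by 0.82 at chrX:1605033-1605235 (adjusted p = 0.000195) and -0.45 ± 0.087 at chrX:1619584-1620864 (adjusted p = 0.00011). At day 10, 1 br peak was higher and 1 lower, at chrX:1614000-1615106 (-0.37, adjusted p = 0.00169).

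For the receptor genes, 4 EcR peaks were higher and 1 lower at day 1, and 5 higher and 1 lower at day 10. At chr2R:6141173-6141819 the H3.3null libraries had 107.7, 106.5 and 114.5 CPM at day 1, against 84.1, 82.3 and 77.5 CPM in OreR. At day 10 they had 139.4, 152.4 and 131.2 CPM, against 80.5, 73.9 and 73.2 CPM. The groups did not overlap at either age, and the log2 differences were 0.43 ± 0.106 (adjusted p = 0.00211) and 0.89 ± 0.106 (adjusted p = 2.62e-08). The change between the ages had an adjusted p of 0.345 in the interaction test. The usp peak was 0.26 higher at both ages (adjusted p = 0.0466 and 0.044). Omitting OreR day 1 replicate 1 or 3 or any H3.3null day 1 library ended its day 1 call (0.16 to 0.28), and omitting any OreR day 10 library or H3.3null day 10 replicate 2 its day 10 call (0.17 to 0.27). The day 1 call was also lost under RLE scaling (adjusted p = 0.0533) and in DESeq2 (0.0525), and the day 10 call under RLE scaling (0.0501).

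Among the late and competence factors, Eip93F had calls in both directions: 2 peaks were higher and 3 lower at day 1, and 1 higher and 2 lower at day 10. Its peak chr3R:21963593-21964854 was 0.53 ± 0.087 higher at day 1 (adjusted p = 1.17e-05), while chr3R:22002285-22002579 was lower at both ages (-0.76 and -0.64 on the log2 scale, adjusted p = 0.00015 and 0.00125). In ftz-f1, 3 peaks were higher at day 1 and 1 at day 10, the latter at chr3L:18749934-18750191 (0.70, adjusted p = 0.000914). The Eip78C peak chr3L:21263094-21263757 was higher by 0.41 at the earlier age and 0.51 at the later (adjusted p = 0.00472 and 0.000414). No Hr39 peak was called at either age.

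**Figure D4:**
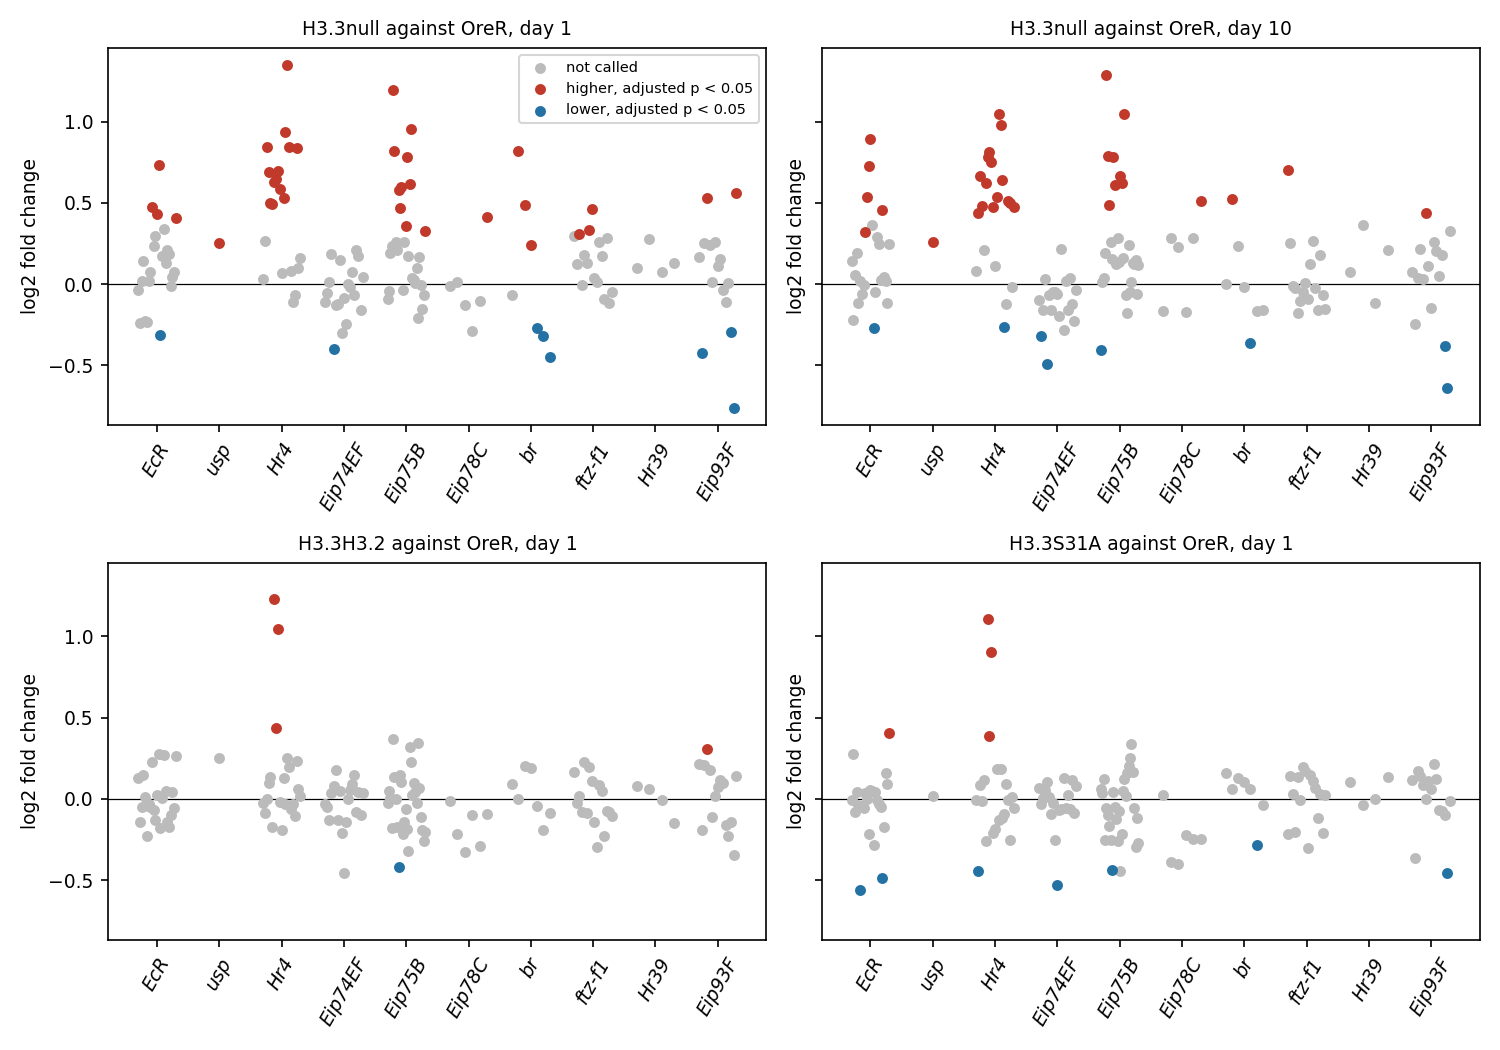
Log2 fold change of every member peak against OreR (vertical axis) by gene (horizontal axis), in 4 panels: H3.3null at day 1, H3.3null at day 10, H3.3H3.2 at day 1, and H3.3S31A at day 1. Red and blue points were called higher and lower at an adjusted p under 0.05; in H3.3null 13 and 15 Hr4 peaks and 10 and 8 Eip75B peaks are higher, against 3 Hr4 peaks in each of the other mutants.

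The 2 mutants that keep an H3 in place of wild-type H3.3 had fewer member calls against OreR than H3.3null had, as they did over all peaks. In H3.3H3.2, 5 members (3.57%) differed at day 1, against 11.1% of all peaks, and 6 (4.29%) at day 10, against 10.7% of all peaks. In H3.3S31A, 11 members (7.86%) differed at day 1, against 10.5% of all peaks, and 7 (5.0%) at day 10, against 10.2% of all peaks. The H3.3S31A counts depended on the libraries: 11 became 6, 7 or 4 without OreR day 1 replicate 2, OreR day 1 replicate 3 or H3.3S31A day 1 replicate 1, and 7 became 4 without OreR day 10 replicate 1. The H3.3H3.2 counts became 3 without OreR day 1 replicate 2 at day 1 and without H3.3H3.2 day 10 replicate 1 at day 10.

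Of those that held, most were in Hr4. The Hr4 peaks chrX:1954937-1955330, chrX:1956014-1956669 and chrX:1962276-1962937 were higher than OreR in all 3 mutants at both ages. Because OreR is the only control, a trait of that strain at these peaks cannot be told apart from an effect of H3.3. At chrX:1954937-1955330 OreR had 18.6, 22.0 and 29.9 CPM at day 1, H3.3H3.2 had 46.2, 60.1 and 60.4 CPM, H3.3S31A had 46.5, 54.2 and 52.4 CPM and H3.3null had 32.9, 40.4 and 36.2 CPM. Every mutant library exceeded every OreR library. The day 1 log2 differences were 1.23 ± 0.153 in H3.3H3.2 (adjusted p = 9.41e-08), 1.11 ± 0.155 in H3.3S31A (adjusted p = 1.28e-06) and 0.63 ± 0.159 in H3.3null (adjusted p = 0.00275). At day 10 they were 1.12, 1.31 and 0.78 in the same order.

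At chrX:1962276-1962937 OreR had 31.5, 45.0 and 48.6 CPM at day 1, and the mutant libraries ran from 59.7 to 97.5 CPM. The log2 differences at day 1 were 1.04 ± 0.127 in H3.3H3.2 (adjusted p = 6.54e-08), 0.91 ± 0.129 in H3.3S31A (adjusted p = 1.53e-06) and 0.69 ± 0.13 in H3.3null (adjusted p = 7.36e-05). The calls of these 2 peaks held without any 1 library, in each mutant and at both ages. At chrX:1956014-1956669 the H3.3null difference at day 1 was 0.65 (adjusted p = 7.88e-05), and the H3.3H3.2 call (0.44, adjusted p = 0.012) was lost without OreR day 1 replicate 2 or H3.3H3.2 day 1 replicate 2, with 0.34 to 0.53 over the omissions. The H3.3S31A call there (0.39, adjusted p = 0.0345) was lost without OreR day 1 replicate 2 or 3 or H3.3S31A day 1 replicate 1 or 3, with 0.30 to 0.52.

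The Eip75B peak chr3L:17974625-17975085 lay on opposite sides of OreR in the mutants at day 1. OreR had 67.0, 53.6 and 65.3 CPM, H3.3null had 90, 95.5 and 91.9 CPM, H3.3H3.2 had 45.4, 46.6 and 46.5 CPM, and H3.3S31A had 43.9, 43.6 and 49.7 CPM. No mutant library overlapped OreR. The log2 differences were 0.58 ± 0.109 in H3.3null (adjusted p = 7.87e-05), -0.42 ± 0.114 in H3.3H3.2 (adjusted p = 0.00939) and -0.44 ± 0.116 in H3.3S31A (adjusted p = 0.00859). The H3.3H3.2 call was lost without OreR day 1 replicate 1 (-0.36) or 3 (-0.38), and the H3.3S31A call without OreR day 1 replicate 3 (-0.39) or H3.3S31A day 1 replicate 1 (-0.41). In H3.3S31A the EcR peak chr2R:6122168-6122557 was lower at day 1 (-0.56 on the log2 scale, adjusted p = 0.000951), a call that held without any 1 library.

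**Figure D5:**
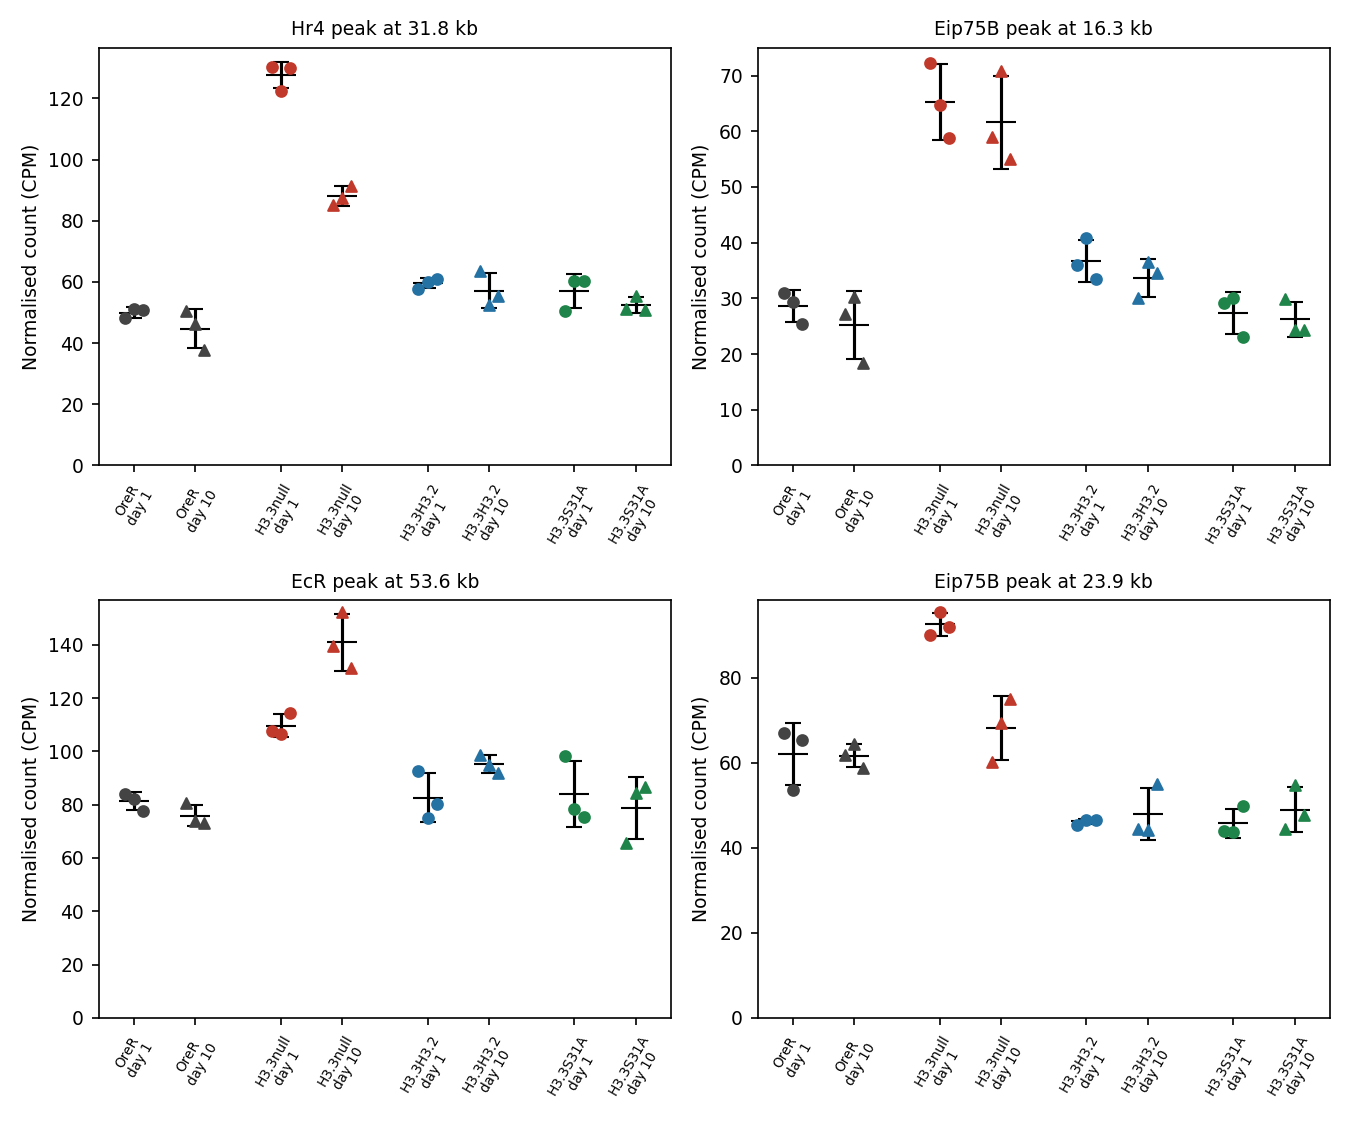
Normalised counts (CPM, vertical axes from 0) of 4 member peaks in each library (points; circles day 1, triangles day 10) by genotype and day, with group mean and SD. At the Hr4 and Eip75B peaks of the upper row and the EcR peak all H3.3null libraries lie above OreR at both ages, and at the Eip75B peak at 23.9 kb (lower right) H3.3null lies above OreR at day 1 and H3.3H3.2 and H3.3S31A below it.

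A direct comparison of H3.3H3.2 with H3.3null sets a supply of H3.2 beside loss of H3.3, and shares the H3.3null libraries with the contrasts above. At day 1, 37 members (26.4%) differed, against 11.4% of all peaks, 5 higher and 32 lower in H3.3H3.2, where 4.91% and 6.44% of all peaks were. At day 10, 25 members (17.9%) differed, against 10.7% of all peaks, 3 higher and 22 lower, where 3.64% and 7.05% of all peaks were. Of the 37 calls at day 1, 23 held without any 1 library, and of the 25 at day 10, 14 did. Hr4 had 11 lower, the chosen peak among them, and 1 higher at day 1, and 7 lower at day 10. Of these Hr4 calls, 10 of 12 at day 1 and 4 of 7 at day 10 held without any 1 library. The chosen peak was picked on its H3.3null libraries, so its place in these counts is a description only. Eip75B had 10 lower and 1 higher at day 1 and 6 lower and 1 higher at day 10. At the Hr4 peak chrX:1973391-1973998 H3.3H3.2 had 57.8, 60.1 and 60.9 CPM at day 1, below every H3.3null library listed above, a log2 difference of -1.10 ± 0.1 (adjusted p = 1.67e-10). The Eip75B peak chr3L:17974625-17975085 differed by -1.0 ± 0.11 at day 1 (adjusted p = 1.13e-08), and the EcR peak chr2R:6134865-6135277 by -0.65 ± 0.104 at day 10 (adjusted p = 2.07e-05). The 1 higher Hr4 peak at day 1 was chrX:1954937-1955330 (0.60 ± 0.144, adjusted p = 0.00312). Summed over the gene, 1503 of 7430 genes (20.2%) differed between H3.3null and OreR at day 1, among them Eip75B, Eip93F, ftz-f1 and usp of the 10. At day 10 21.2% differed, among them Eip75B and usp. The usp sum is its single peak, whose calls depended on the libraries as given above. These sums were not refitted with libraries left out. The Hr4 sum, which holds the chosen peak, passed at both ages and is a description only.

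The peaks outside these genes whose 8 group means followed those of the chosen Hr4 peak most closely were in Imp (r = 0.970), futsch (0.967), Sobp (0.965), CG17977 and lig (1 peak, 0.963) and beat-Vc (0.957). These are Pearson correlations of log2 group means, taken over all 24 libraries, and describe the 8 groups only. The spans of their group means were 0.25 to 0.78 on the log2 scale. Among the members the closest was the Hr4 peak chrX:1963403-1964271 (r = 0.887).

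Other genes of the pathway were taken from lists. Beside the counts below, 4.12% of all peaks rose and 4.32% fell in the mean age contrast. A list of 17 genes downstream of ecdysone held nuclear receptors and cofactors, and also Eip55E and Eip71CD, which had no peak. Of 53 peaks at 11 of these 17 genes, 7 rose and 2 fell in the mean age contrast, with a median of 0.04. Both falls were in svp, a nuclear receptor gene, and the one with the smaller p was at chr3R:12278504-12279474 (-0.36 ± 0.051, adjusted p = 5.03e-06), at 159.8 ± 12.6 CPM in day 1 libraries and 124.5 ± 9.1 CPM at day 10. Of 59 peaks at 8 neuronal temporal factor genes, 9 rose and 4 fell, with a median of 0.07, and the smallest p-values were falls in mamo (-0.51 ± 0.064, adjusted p = 6.89e-07) and pros (-0.48 ± 0.064, adjusted p = 1.7e-06), both transcription factor genes. None of 14 peaks at 6 of 13 genes of ecdysone synthesis, uptake, sensing and breakdown, of 16 peaks at 3 of 8 juvenile hormone genes or of 4 peaks at 3 of 8 genes of eclosion peptides and their receptors was called with age in edgeR.

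Against OreR, H3.3null was higher at 14.1% and lower at 10.6% of all peaks at day 1, and at 15.5% and 9% at day 10. It was higher at 4 and lower at 2 of the 14 ecdysone synthesis, uptake and breakdown peaks at each age. The peak chr3R:3332479-3333114 in spok, an enzyme gene of ecdysone synthesis, was higher by 1.21 ± 0.162 and 1.38 ± 0.166 at the earlier and later age (adjusted p = 3.72e-07 and 4.07e-08). The peak chr3L:24378883-24381264 in nvd, another such gene, was lower (-1.29 ± 0.178 at day 1, adjusted p = 5.58e-06). Whether these differences go with the pathway or with the position of the genes on their chromosome was not tested. Among receptor and cofactor peaks 4 were higher and 5 lower at day 1, and 5 and 5 at day 10, among them a peak of the nuclear receptor gene Hr51 at -0.95 and -1.21 (adjusted p = 1.33e-06 and 2.33e-08). Of the temporal factor peaks 13 were higher and 1 lower at day 1, and 5 and 2 at day 10, and of the juvenile hormone peaks 2 were higher and 2 lower at each age, with Kr-h1 higher by 0.66 and 0.83 (adjusted p = 0.000575 and 2.43e-05). None of the eclosion peptide peaks was called at either age. The medians of these lists lay between -0.09 and 0.24 in the 2 H3.3null contrasts, beside -0.001 and -0.006 over all peaks.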

How the data were processed

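The authors deposited 1 table of read counts over a single peak set for all 24 libraries. Its columns were matched to samples by genotype, day and replicate, and 0 columns were left unused. The submitters' processing notes name dm6, STAR 2.7.7a, SAMtools 1.9, bedtools 2.26, deepTools 3.2.0, featureCounts (Subread 2.0.1) and DESeq2 1.34.0, with no role for each. The peak caller, the handling of duplicates and any shift of reads for the transposase are not given in the sources used here. Per the labels, the molecule is genomic DNA, yet the extraction text there describes RNA isolation and total RNA libraries; here the table was taken to hold ATAC-seq reads, the assay named for the series. Counts carry no molecular identifiers.

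Genes came from the RefSeq table of Release 6, which gives no strand or exons. No sequence is shown. Older symbols phm, EcI, let-7-C, Eip55E and Eip71CD were read as phtm, Oatp74D, lncRNA:let7C, Cth and MsrA. The members, lists and tests were chosen with earlier results of these data known.

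Counts were tested with edgeR 4.0.16 (R 4.3.3, limma 3.58.1): TMM scaling (factors 0.970 to 1.02), filterByExpr by group (0 peaks removed), 1 coefficient per group over 8 groups, 16 residual degrees of freedom, quasi-likelihood F-tests and Benjamini-Hochberg adjustment over all 11145 peaks within a contrast, with calls at an adjusted p under 0.05. The procedure was tried on simulated data whose planted changes were larger than most of the age calls here. That trial therefore does not bear on calls of the smaller size, and its outcome is not given. The common biological coefficient of variation was 8.96%. Replicate pairs differed by more than sampling noise in all 24 pairs (chi-square per degree of freedom 2.2 to 8.22), so none was merged. Log2 changes are the first group minus the second. The mean age contrast averages OreR, H3.3H3.2 and H3.3S31A with equal weight, and levels over 9 libraries give the plain mean and SD. Gene sums add all peaks within 1 kb of a gene, and were tested over 7430 genes.

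Peaks to name were picked by rule: the chosen Hr4 peak, the highest of each gene, every age call and the 5 most similar peaks. For each genotype contrast and gene, the called peak with the smallest p and no overlap between groups was picked too. Some picks from the genotype contrasts and the age calls are not written out above. The Hr4 peak that starts at 1956014 and the Eip75B peak that starts at 18027433 were named after their values were seen. The peaks within 50 kb of Hr4 were also counted after the data were seen. Alternatives were RLE scaling, DESeq2 1.42.0, other filters, the compared groups alone, a replicate block, other margins around genes, and each library left out.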

Additional observations from a re-analysis of the deposited data

Results flagged for a closer look

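At 4 member peaks all libraries of 1 group moved one way and those of another the opposite way. The share of all peaks with such a pattern was not counted, so this number is a description only. At the Eip74EF peak chr3L:17613867-17614449, H3.3null lay above OreR at day 1 (0.17 on the log2 scale) and below it at day 10 (-0.12), a difference of -0.3, with an adjusted p of 0.466 in the interaction test (edgeR). At the Eip75B peak chr3L:18044362-18044625 H3.3null had an age change of 0.29 and H3.3H3.2 one of -0.17, a difference of -0.46 that was not tested. At the Hr4 peak chrX:1962276-1962937 H3.3H3.2 had an age change of -0.29 and H3.3S31A one of 0.11, a difference of 0.41 that was not tested. At the Hr4 peak chrX:1975623-1976690 it was -0.32 in H3.3null and 0.17 in H3.3S31A, a difference of 0.49 that was not tested.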

How the results depend on the processing

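Counts of member calls stayed within 1.5 times under RLE scaling, DESeq2, other filters, the compared groups alone, the replicate block and other gene margins, except in 2 age contrasts with few calls. In H3.3H3.2 the 1 call became 2 with the replicate block, 2 in DESeq2, 4 with its groups alone and 2 with a margin of 5 kb. In H3.3S31A the 2 calls became 6 in DESeq2 and 1 with the groups alone. The replicate numbers did not pair the samples: correlations of same-numbered deviations ran from -0.24 to 0.36, and in no contrast did all 3 pairs exceed 0.1. The replicate block moved no other count beyond 1.5 times.

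With each library left out in turn, member calls ranged from 2 to 4 for age in OreR, 2 to 5 in H3.3null, 1 to 2 in H3.3H3.2, 1 to 2 in H3.3S31A and 19 to 26 in the mean of 3. Against OreR they ranged from 38 to 42 and 34 to 39 in H3.3null at day 1 and day 10, 3 to 6 and 3 to 6 in H3.3H3.2, and 4 to 9 and 4 to 10 in H3.3S31A. For H3.3H3.2 against H3.3null they were 28 to 31 and 18 to 25, for the interactions 0 to 0, and for gene sums 3 to 7.

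Of 87 calls at the peaks picked by these naming rules, written out above or not, 52 were kept in every omission. Signs changed only for 3 highest peaks near 0 that were never called: Eip75B chr3L:18036026-18036696 (-0.026 to 0.029, and -0.002 with a mean of 20 CPM or more), Eip78C chr3L:21239841-21240412 (-0.008 to 0.061) and br chrX:1605792-1607879 (-0.041 to 0.016). The median SE of a difference between 2 groups of 3 was 0.106 to 0.11 among members, so smaller changes were seen mainly in the mean of 3 genotypes.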
